A study of Mus musculus with 2 samples.

Results

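The 31 genes described here are immediate early genes and genes of the stress response to tissue dissociation. They were taken by name and read from both count tables of the series, and 31 of 31 were found among the 24417 genes listed in at least 1 of the tables. By role they are 8 factors of the AP-1 family, 6 EGR and NR4A factors, 6 KLF, MYC and C/EBP factors, 8 feedback and quiescence genes, and 3 heat-shock proteins. The series is single-cell RNA sequencing (BD Rhapsody, a microwell system) of lungs from C57BL/6 mice that received silica, a crystalline dust toxic to the lung, through the trachea at 400 mg/kg. The first group was wild type (WT), the other lacked the chemokine receptor CCR2 (CCR2-/-, here CCR2KO), and both had received silica, so no untreated lung stands beside them. Lungs were taken on days 3, 7 and 21, minced, and digested with Liberase, a collagenase blend, for 60 minutes at 37 °C. Each genotype gave 1 library pooled from antibody-hashtagged suspensions (tags), 9 in WT and 8 in CCR2KO. No source used here ties a tag to a day or to an animal, so days are never compared. Genotype and cartridge cannot be told apart.

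Immediate early genes are switched on within minutes of a stimulus by factors that are already in the cell, without new protein synthesis. Growth factors, cytokines, calcium and kinase stress pathways reach them through serum response factor, CREB and related factors, and their products then drive a later wave of genes. The same genes rise when tissue is warmed, minced and digested, together with heat-shock chaperones, so in dissociated lung they carry both what the cell was doing in the animal and what happened to it on the bench. Their mRNAs are short-lived, and several of the products (Zfp36, Dusp1, Atf3) shut the response down again.

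Short sites through which these signals are known to act were looked for before the start sites, and 26 of the 31 genes had a promoter in the RefSeq table of GRCm38.p6 used here. Within 250 bases before the start, on both strands, the cyclic AMP response element TGACGTCA was found at Btg2 and Dusp1, which is 2 of 26 against 1.62% of all 27025 promoters. Its shorter core TGACGT, which lies inside the longer site, was found at 6 of 26 (Atf3, Btg1, Btg2, Dusp1, Fos and Nr4a3) against 6.56% of all. The heat-shock element core GAANNTTC was found at 4 of 26 (Fosl2, Hspa1a, Hspa1b and Jun) against 6.78%. The CArG box, the site of serum response factor, was found at Zfp36 alone, 1 of 26 against 1.40%, and the AP-1 site TGANTCA at 0 of 26 against 6.87%. The TATA box TATAAA was found at Btg1, Fos and Nr4a2, 3 of 26 against 13%. Below are the 150 bases before the start of 5 genes whose levels the results turn on, read 5′ to 3′ on the gene's strand, with the matching letters in capitals; a match is a description of the letters and not of binding.
Fos, chr12:85473740-85473889, plus strand, TGACGT 66 and TATAAA 33 bases before the start: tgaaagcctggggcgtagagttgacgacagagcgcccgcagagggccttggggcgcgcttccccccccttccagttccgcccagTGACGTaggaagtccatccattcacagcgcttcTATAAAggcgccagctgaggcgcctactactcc
Dusp1, chr17:26508473-26508622, minus strand, TGACGTCA 143 bases before the start: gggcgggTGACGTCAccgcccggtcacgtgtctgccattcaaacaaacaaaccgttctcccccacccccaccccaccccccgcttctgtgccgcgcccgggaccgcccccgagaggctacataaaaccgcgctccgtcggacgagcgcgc
Zfp36, chr7:28379229-28379378, minus strand, CArG box 58 bases before the start: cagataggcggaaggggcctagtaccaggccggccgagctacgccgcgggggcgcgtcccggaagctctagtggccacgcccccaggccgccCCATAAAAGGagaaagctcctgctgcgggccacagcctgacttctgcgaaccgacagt
Hspa1a, chr17:34972157-34972306, minus strand, GAANNTTC 104 bases before the start: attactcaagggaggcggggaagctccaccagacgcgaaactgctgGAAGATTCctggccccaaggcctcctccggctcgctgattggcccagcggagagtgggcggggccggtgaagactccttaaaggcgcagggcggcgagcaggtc
Hspa1b, chr17:34959239-34959388, minus strand, GAANNTTC 104 bases before the start: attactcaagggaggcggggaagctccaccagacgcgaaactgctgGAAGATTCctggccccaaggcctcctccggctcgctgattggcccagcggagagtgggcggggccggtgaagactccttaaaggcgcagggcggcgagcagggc
The last pair lie close together on chromosome 17 and were identical at 149 of these 150 bases. Hspa1a and Hspa1b encode nearly the same chaperone, so counting may have split their reads, and each level of theirs is uncertain as to which copy it came from.

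After filtering, 16857 WT cells and 14882 CCR2KO cells were kept, with 63327246 to 94948946 reads per tag in WT and 56541715 to 88359317 in CCR2KO. Ccr2, the targeted gene, lay between 53.8 and 101 CPM (reads scaled to a total of 1000000) over the WT tags and between 1.45 and 4.39 CPM over the CCR2KO tags. Cells were clustered without the 31 genes and without Ccr2. Marker genes gave 27 of the 32 clusters a name, which states likeness to a cell type, and the rest are called by number. At 5000 reads per cell, a mean of 849 genes per cell was detected in WT and 738 in CCR2KO. The number was lower in CCR2KO in every class tested, so the libraries differ in complexity beside genotype. The tables shared 318 of their cell numbers, which are short numeric labels.

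The 31 genes together took 1.26% ± 0.0970 (SD, n = 9 tags) of all reads in WT and 1.25% ± 0.128 (n = 8) in CCR2KO. The WT tags lay between 1.15% and 1.40%, and the CCR2KO tags between 1.06% and 1.41%, and the groups overlapped. The order of the means turned at 5000 reads per cell, to 1.41% in WT and 1.48% in CCR2KO, and likewise as a mean over cells. Between cell classes the share varied far more. Neutrophils had the highest share among classes present in both libraries, 2.13% ± 0.254 in WT, and 1.76% to 2.58% over the CCR2KO tags. They were followed in WT by adventitial fibroblasts, the cells around vessels and airways, at 1.82% ± 0.152, by cluster 23, whose leading genes include Il17a and Trdc, at 1.79% ± 0.253, and by large vessel endothelium at 1.78% ± 0.291. Among the 23 classes tested, alveolar macrophages had the lowest share, 0.810% ± 0.241 in WT, beside conventional dendritic cells at 0.835% ± 0.0635 and alveolar type 1 cells at 0.843% ± 0.356. In CCR2KO alveolar type 1 cells were lowest among the tested classes, at 0.619% ± 0.148. The neighbours in this order overlapped over tags, while every WT neutrophil tag, from 1.75% upward, lay above every WT alveolar macrophage tag, up to 1.15%. The share is a sum, and a high share was not a high level of each gene. WT neutrophils were the highest class for 7 of the 31 genes, but averaged 964 CPM of Fos and 681 CPM of Jun. Both lay below the medians of the class means, 1365 and 1288 CPM.

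**Figure D1:**
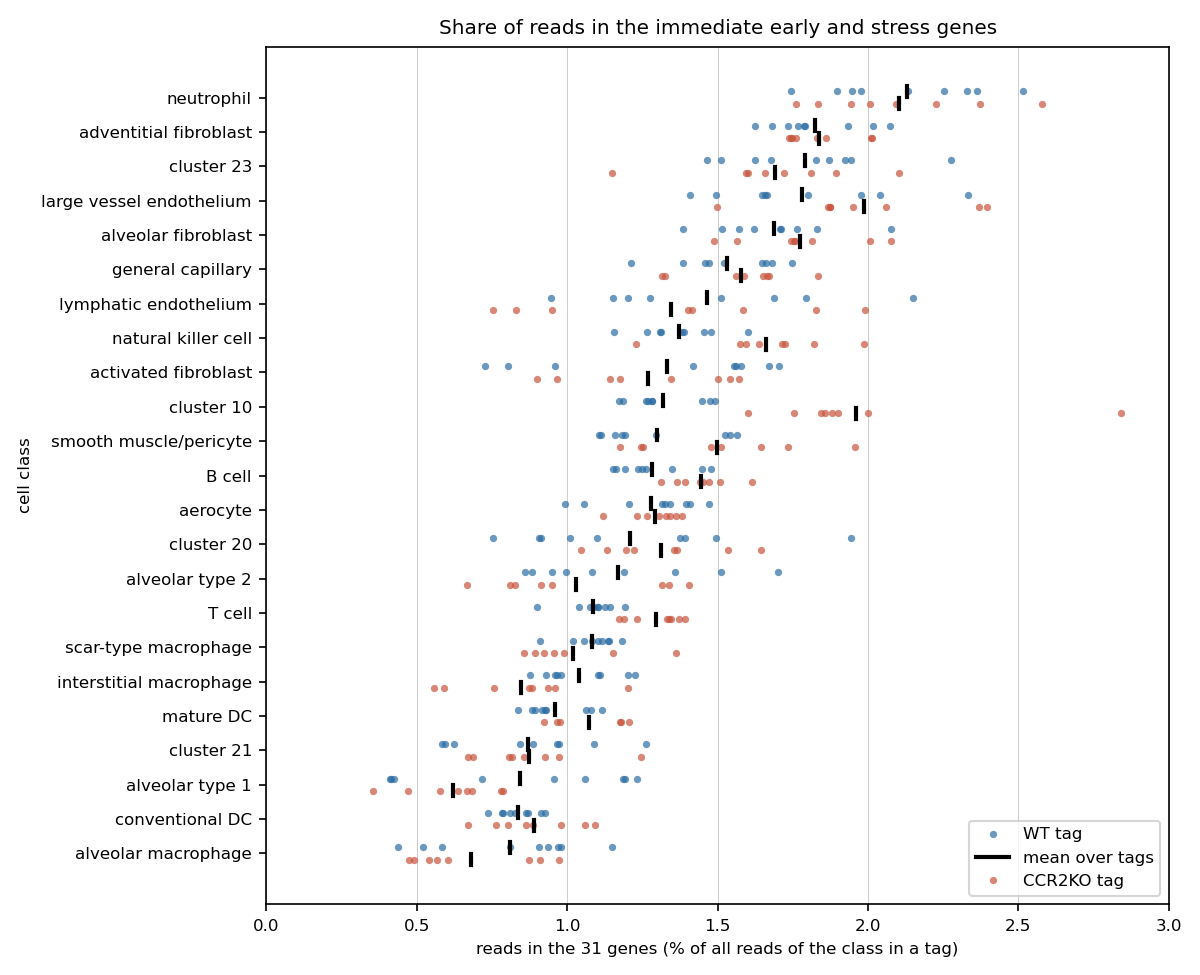
Share of all reads that fell in the 31 genes (x axis, percent) for each cell class (y axis, ordered by the WT mean). Points are tags (blue WT, red CCR2KO) and black ticks are means over tags; WT neutrophils average 2.13% and WT alveolar macrophages 0.810%, and in cluster 10 every CCR2KO tag lies above every WT tag.

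Levels of single genes are given as CPM, the reads of a gene scaled to a total of 1000000, summed over the cells of a class in a tag, averaged over tags. CPM is not scaled to gene length, so a gene is compared with itself between classes and not with other genes. The class with the highest level was the same in both libraries for 20 of the 31 genes. Its tags were clear of all tags of the class with the next highest mean for 3 genes in WT and for 2 in CCR2KO. Classes further down were not part of this count, and for the other genes the leading classes overlapped. Neutrophils led for 7 genes in WT and for 5 in CCR2KO. Mesothelial cells, which entered with 4 CCR2KO tags and no WT tag, led for 4 genes in CCR2KO. These differences are descriptions of classes made by clustering and were not tested.

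Among the AP-1 factors, Fos, the inducible partner of Jun, was highest in adventitial fibroblasts in WT, at 2922 ± 321 CPM, with alveolar fibroblasts next at 2834 CPM and natural killer cells lowest at 481 CPM. In CCR2KO Fos was highest in mesothelial cells (4782 ± 736 CPM, n = 4), followed by smooth muscle or pericytes at 3178 CPM. Jun, which forms the AP-1 dimer with Fos, had another order. It was highest in large vessel endothelium, with a WT mean of 2463 ± 578 CPM and a CCR2KO mean of 2558 ± 843 CPM, and alveolar type 2 cells, the surfactant makers, came next in both libraries. Jun was lowest in scar-type macrophages in WT (231 CPM) and in alveolar macrophages in CCR2KO (193 CPM). In WT Fos was thus led by stromal classes, while Jun was led by an endothelial class in both libraries.

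The other AP-1 genes were led in WT by cluster 23, B cells or neutrophils. Junb was highest in cluster 23 (2576 ± 538 CPM in WT) and natural killer cells, Fosl2 in cluster 23 as well (920 ± 383 CPM), and Jund, the constitutive member, in B cells (1206 ± 206 CPM). Fosb was led in WT by cluster 23 at 1174 CPM and by adventitial fibroblasts at 1123 CPM. Atf3, a stress-induced repressor, was led in WT by neutrophils at 749 ± 336 CPM, with T cells lowest at 42.3 CPM. Maff, a small Maf protein without a transactivation domain, was highest in neutrophils at 504 ± 176 CPM in WT. Its lowest neutrophil tag, at 338 CPM, was above the highest adventitial fibroblast tag, at 248 CPM. The highest tags of cluster 20 and cluster 23, whose means were lower, reached 466 and 452 CPM and passed that neutrophil tag. In CCR2KO neutrophils and adventitial fibroblasts overlapped for Maff.

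Among the EGR genes, Egr1, a zinc-finger factor of growth and injury signals, was highest in adventitial fibroblasts, with a WT mean of 2582 ± 215 CPM and a CCR2KO mean of 2707 ± 348 CPM, with alveolar fibroblasts next. It was lowest in alveolar macrophages, where WT averaged 58.4 CPM (44.2-fold below the top class) and CCR2KO 42.2 CPM (64.1-fold below). Egr2 was highest in the class where Egr1 was lowest, alveolar macrophages, with a WT mean of 123 ± 22.1 CPM and a CCR2KO mean of 118 ± 26.2 CPM. Egr3, known as a target of antigen receptor signals, was highest in B cells, with a WT mean of 206 ± 94.8 CPM and a CCR2KO mean of 268 ± 126 CPM.

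The NR4A genes encode orphan nuclear receptors, and each was led by another class. Nr4a2 was highest in natural killer cells, with a WT mean of 959 ± 286 CPM and a CCR2KO mean of 1269 ± 246 CPM, and conventional dendritic cells came next. Nr4a3 was highest in mature dendritic cells, with a WT mean of 849 ± 405 CPM and a CCR2KO mean of 928 ± 275 CPM; in CCR2KO its lowest tag there, at 715 CPM, was above the highest natural killer cell tag, at 615 CPM. Nr4a1 was led in WT by cluster 23 at 1152 ± 443 CPM and in CCR2KO by cluster 10 at 1626 ± 639 CPM. Nr4a2 and Nr4a3 were lowest in endothelial or epithelial classes in both libraries, at 18.6 and 2.32 CPM in WT aerocytes, the capillary cells of gas exchange.

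Klf2 and Klf4, the shear-responsive factors of endothelium, were led by endothelial classes. Klf2 was highest in large vessel endothelium, with a WT mean of 1213 ± 378 CPM and a CCR2KO mean of 1266 ± 509 CPM. Klf4 was highest in aerocytes, with a WT mean of 1290 ± 257 CPM and a CCR2KO mean of 1308 ± 253 CPM, with general capillary cells at 1260 and 1292 CPM. Klf6 was highest in mature dendritic cells (1115 ± 256 and 1446 ± 233 CPM). Myc was highest in B cells (246 ± 64.5 and 374 ± 158 CPM). In CCR2KO its lowest B cell tag, at 191 CPM, was above the highest adventitial fibroblast tag, at 162 CPM. The highest tags of cluster 20 and of lymphatic endothelium, at 230 and 197 CPM, passed that B cell tag. Cebpb, a C/EBP factor of myeloid cells, was highest in neutrophils (2562 ± 385 and 2677 ± 475 CPM), with cluster 10 next, and Cebpd in alveolar fibroblasts (837 ± 214 and 988 ± 175 CPM).

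Of the feedback genes, Dusp1, which removes phosphate from p38 and JNK, was highest in neutrophils, with a WT mean of 1803 ± 385 CPM and a CCR2KO mean of 1854 ± 281 CPM. In WT the lowest neutrophil tag for Dusp1, 1361 CPM, was above the highest alveolar fibroblast tag, 1031 CPM. Dusp2, a phosphatase of lymphoid cells, was highest in natural killer cells, at 808 ± 208 CPM in WT, where its lowest tag of 594 CPM was above the highest B cell tag of 503 CPM. Btg1, an antiproliferative gene of resting lymphocytes, was highest in neutrophils (2772 ± 414 and 3458 ± 574 CPM), with B cells next. Btg2 was highest in neutrophils in WT at 628 ± 193 CPM and in mesothelial cells in CCR2KO at 727 ± 199 CPM. Ier5 was highest in neutrophils in both libraries, with a WT mean of 742 ± 218 CPM and a CCR2KO mean of 813 ± 151 CPM. Ier2 was led by large vessel endothelium in WT and by general capillary endothelium in CCR2KO, with aerocytes next in both. Ier3 was led by general capillary endothelium in WT, with neutrophils next, and by large vessel endothelium in CCR2KO. Zfp36, which binds and destabilises cytokine mRNAs, had the narrowest range over classes in WT, 3.98-fold from adventitial fibroblasts at 1524 ± 249 CPM to alveolar type 1 cells at 383 CPM.

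The inducible HSP70 genes had another order again. In WT both Hspa1a (202 ± 100 CPM) and Hspa1b (94.0 ± 58.4 CPM) were highest in alveolar type 2 cells. In CCR2KO both were highest in smooth muscle or pericytes, at 305.3 ± 107 and 145 ± 52.4 CPM, with aerocytes next. Hspa1a was lowest in WT alveolar macrophages, at 6.12 CPM. Dnajb1, the co-chaperone of HSP70, was highest in WT adventitial fibroblasts, at 194 ± 87.0 CPM. Neutrophils, first in the share of reads over all 31 genes, had 25.6 ± 21.0 CPM of Hspa1a and 5.30 ± 5.23 CPM of Hspa1b in WT, so the AP-1, feedback and heat-shock genes of the list did not rank the classes alike.

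**Figure D2:**
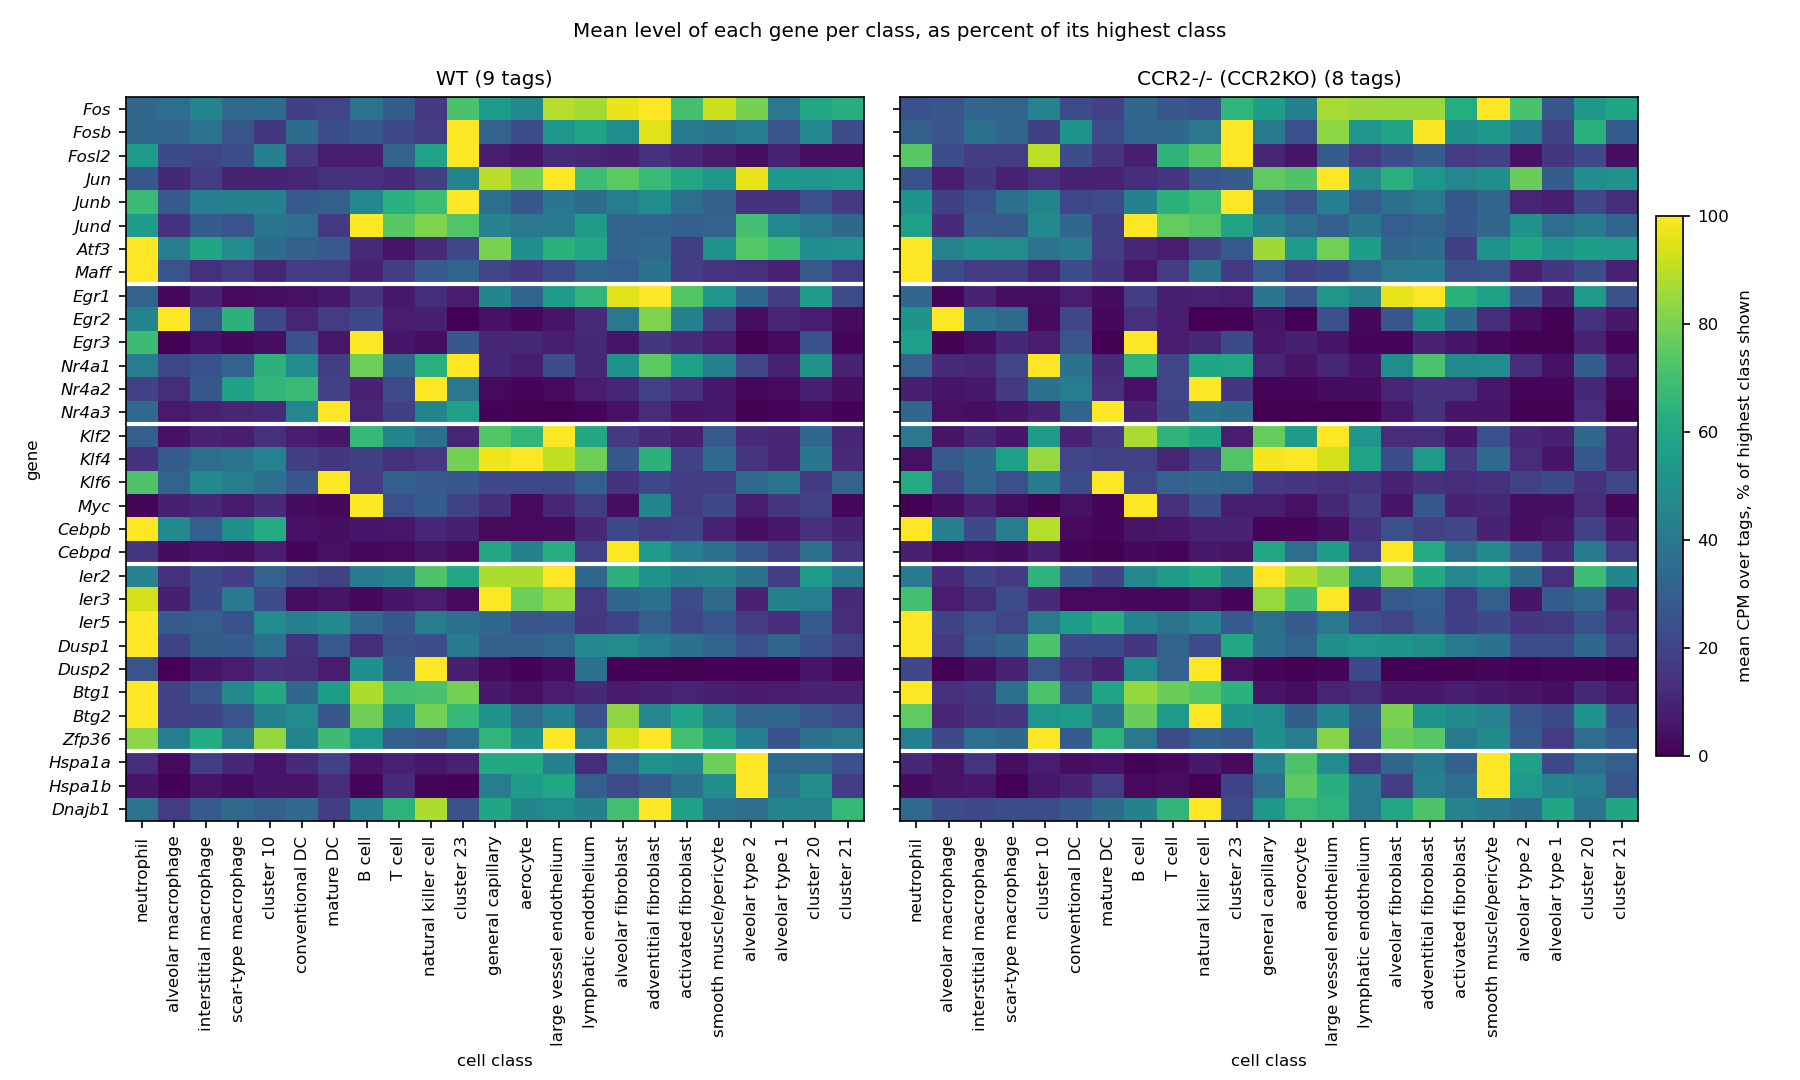
Mean CPM over tags of each gene (rows, in role order, white lines between roles) in each of 23 classes (columns), shown as percent of that gene's highest class in the panel; WT left, CCR2KO right. Mesothelial cells are not drawn. Egr1 is brightest in fibroblast classes, Klf4 in endothelial classes, and Dusp1 and Cebpb in neutrophils, in both panels.

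Within a library the suspensions differed from each other, and they differed in some cell classes and not in others. In WT alveolar macrophages the share of reads in the 31 genes was 0.585%, 0.521% and 0.437% in tags 7, 8 and 9, while the other tags lay between 0.808% and 1.15%. In WT activated fibroblasts or myofibroblasts tags 7, 8 and 9 had 0.728%, 0.959% and 0.804%, and the other tags lay between 1.42% and 1.70%. In WT alveolar type 1 cells the same tags had 0.410%, 0.425% and 0.415%, against 0.716% to 1.23% in the others. In each of these classes the same 3 tags were the lowest, and they were so in cluster 21, where none of them passed 0.6249%, against 0.843% to 1.26%. The classes and tags described here were chosen after their values were seen, and no test was made of them.

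The same 3 WT tags were not low in every class. In aerocytes they had 1.47%, 1.41% and 1.34%, and the lowest tag was tag 4 at 0.994%. In T cells tag 8 was the highest, at 1.19%, and the lowest was tag 4, at 0.899%. In interstitial macrophages they had 0.965%, 0.980% and 0.930%, and the lowest was tag 4 at 0.875%.

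In CCR2KO the tags that stood apart had partly the same numbers as in WT. In alveolar macrophages tags 1, 2 and 3 had 0.909%, 0.872% and 0.974%, and the rest lay between 0.474% and 0.603%. In alveolar type 2 cells tags 1, 2 and 3 had 1.34%, 1.41% and 1.31% and the rest lay between 0.667% and 0.949%. The WT alveolar type 2 cells had their highest values in tags 1, 2 and 3 as well, at 1.36%, 1.51% and 1.70%, against 0.860% to 1.19%. In CCR2KO activated fibroblasts and alveolar type 1 cells the lowest values were in tags 7 and 8, at 0.965% and 0.900% in the former and 0.355% and 0.472% in the latter. Over 21 classes, CCR2KO tag 2 lay above its library's median tag in 20, and tag 6 in 4. Over 22 classes in WT, tags 2 and 3 lay above it in 16 each, and tag 8 in 4.

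**Figure D3:**
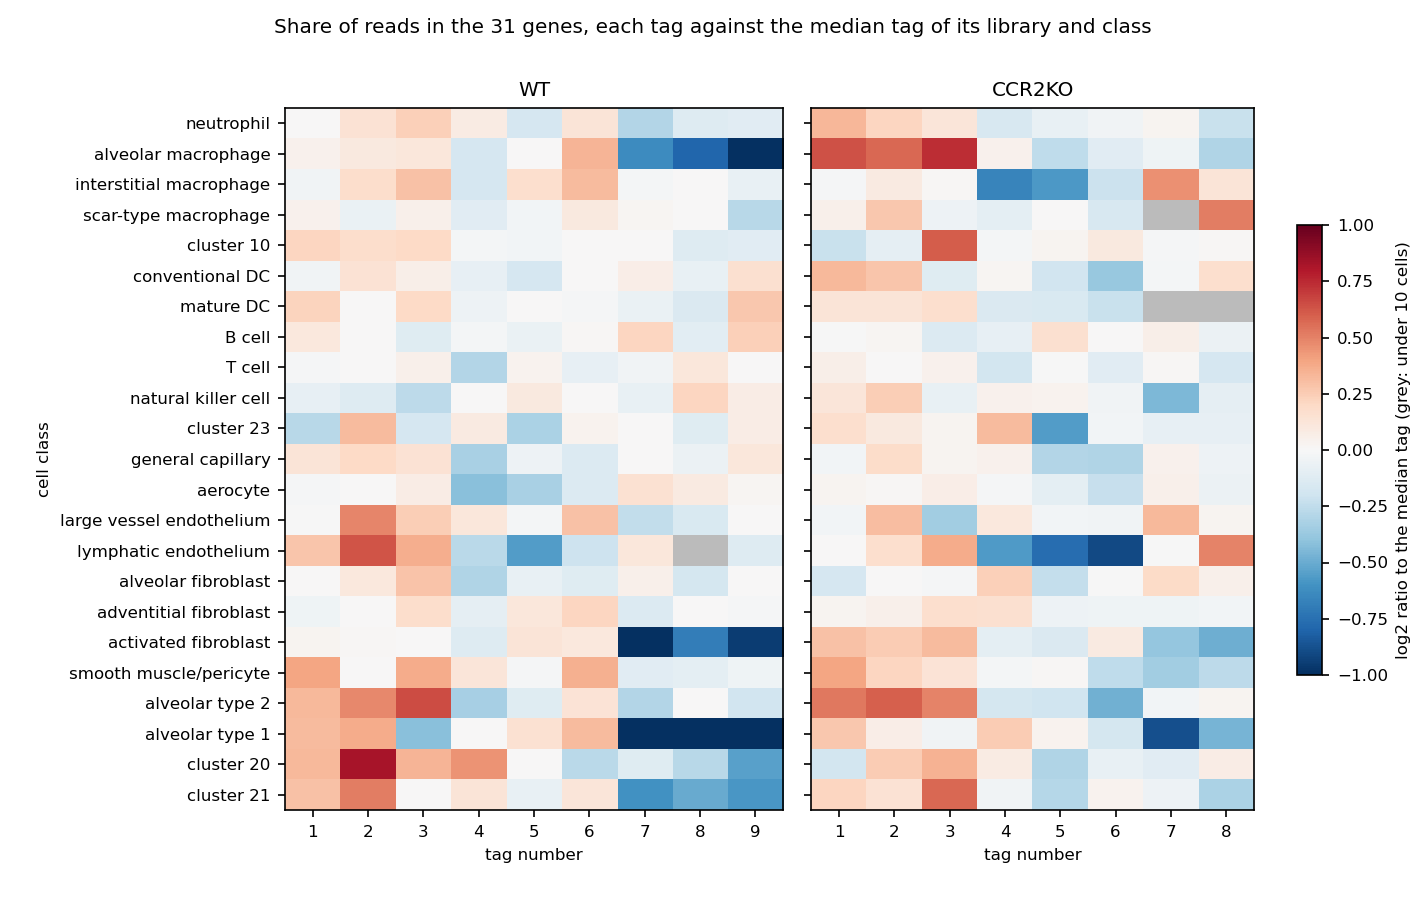
Share of reads in the 31 genes in each tag (columns) and class (rows), as log2 ratio to the median tag of the same library and class (color, cut off at -1 and 1); red is above the median, blue below, grey has under 10 cells. WT tags 7 to 9 are dark blue in alveolar macrophages, activated fibroblasts and alveolar type 1 cells, and near white in T cells and adventitial fibroblasts.

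The genes behind these shares, named after their values were seen, include AP-1, EGR and feedback genes. In WT alveolar macrophages Fos had 520, 320 and 270 CPM in tags 7, 8 and 9 and between 918 and 1728 CPM in the others, a range of 6.41-fold. Zfp36 had 350, 219 and 216 CPM in these tags against 764 to 1001 CPM, and Cebpb 878, 842 and 809 CPM against 1327 to 1670 CPM. In CCR2KO alveolar macrophages Fos had 1593, 1531 and 1344 CPM in tags 1, 2 and 3 and between 405 and 597 CPM in the rest. In WT activated fibroblasts Egr1 had 812, 1278 and 1184 CPM in tags 7, 8 and 9 against 1907 to 2491 CPM, and Jun 784, 1052 and 726 CPM against 1515 to 2193 CPM.

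The heat-shock genes did not follow them in every class. Over all cells Hspa1a had 83.5, 126 and 90.4 CPM in WT tags 7, 8 and 9, and between 46.8 and 59.1 CPM in the other WT tags. Hspa1b had 37.7, 52.4 and 29.5 CPM in these tags, against 14.5 to 20.0 CPM. Fos over all cells had 1534, 1493 and 1397 CPM in the same tags, and between 1409 and 1982 CPM in the others. In WT alveolar type 2 cells Hspa1a was highest in tags 7, 8 and 9 as well, between 294 and 331 CPM, against 66.0 to 254 CPM. In WT activated fibroblasts it was lowest there, at 31.2, 28.4 and 45.3 CPM, against 81.5 to 162 CPM.

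Depth moved with some of these values. In WT activated fibroblasts the median cell had between 80644 and 94388 reads in tags 7 to 9 and between 45245 and 61014 reads in the others, and 1277 to 1340 against 1053 to 1180 genes at 5000 reads. In WT alveolar macrophages tags 7 to 9 had between 95429 and 109377 reads per median cell, but tags 4 and 5, with shares of 0.808% and 0.905%, had 100781 and 95536. In WT alveolar type 1 cells the median depths overlapped, and the mitochondrial share of reads was 8.44% to 8.62% in tags 7 to 9 and 7.25% to 8.04% in the others. In CCR2KO alveolar macrophages and activated fibroblasts, tags 1 to 3, with the higher shares, were the shallowest: alveolar macrophages of these tags had 63345 to 77156 reads per median cell against 90356 to 111250, and activated fibroblasts 44505 to 48413 against 71259 to 88438. In CCR2KO alveolar type 2 cells tags 1 to 3 had 40343 to 43558 reads, but the shallowest was tag 7, at 40212 reads with a share of 0.912%. There were 17 to 58 alveolar type 1 cells per WT tag. The part of depth, mitochondrial share, cell number and harvest day in these differences was not tested, and suspension and day cannot be told apart.

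CCR2KO was compared with WT within each of 23 classes over tags with edgeR's quasi-likelihood test, with Benjamini-Hochberg adjustment over all genes tested in the class and a threshold of 0.05. The p-values measure the spread between tagged suspensions. Of the tests of the 31 genes over all classes, 9 were called higher and 3 lower in CCR2KO, against a background of 0.117% higher and 0.344% lower among all 192395 gene-by-class tests. Between 24 and 31 of the genes were tested in each class. As a share of these tests the lower calls lay near the background, and the higher calls lay above it. The calls fell in 5 classes, with 6 in cluster 10 and 3 in interstitial macrophages. In each of the remaining classes 0 of the genes passed. At an unadjusted p under 0.05 between 0 and 10 did, with 10 of 30 in adventitial fibroblasts, where 10.3% of all genes tested did, and 10 of 26 in cluster 21, where 4.19% did. Among the remaining classes DESeq2 called 1 to 3 in each of B cells, adventitial fibroblasts, alveolar macrophages, alveolar type 2 cells, neutrophils and scar-type macrophages. Values tag by tag in the tests are CPM scaled with TMM factors.

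**Figure D4:**
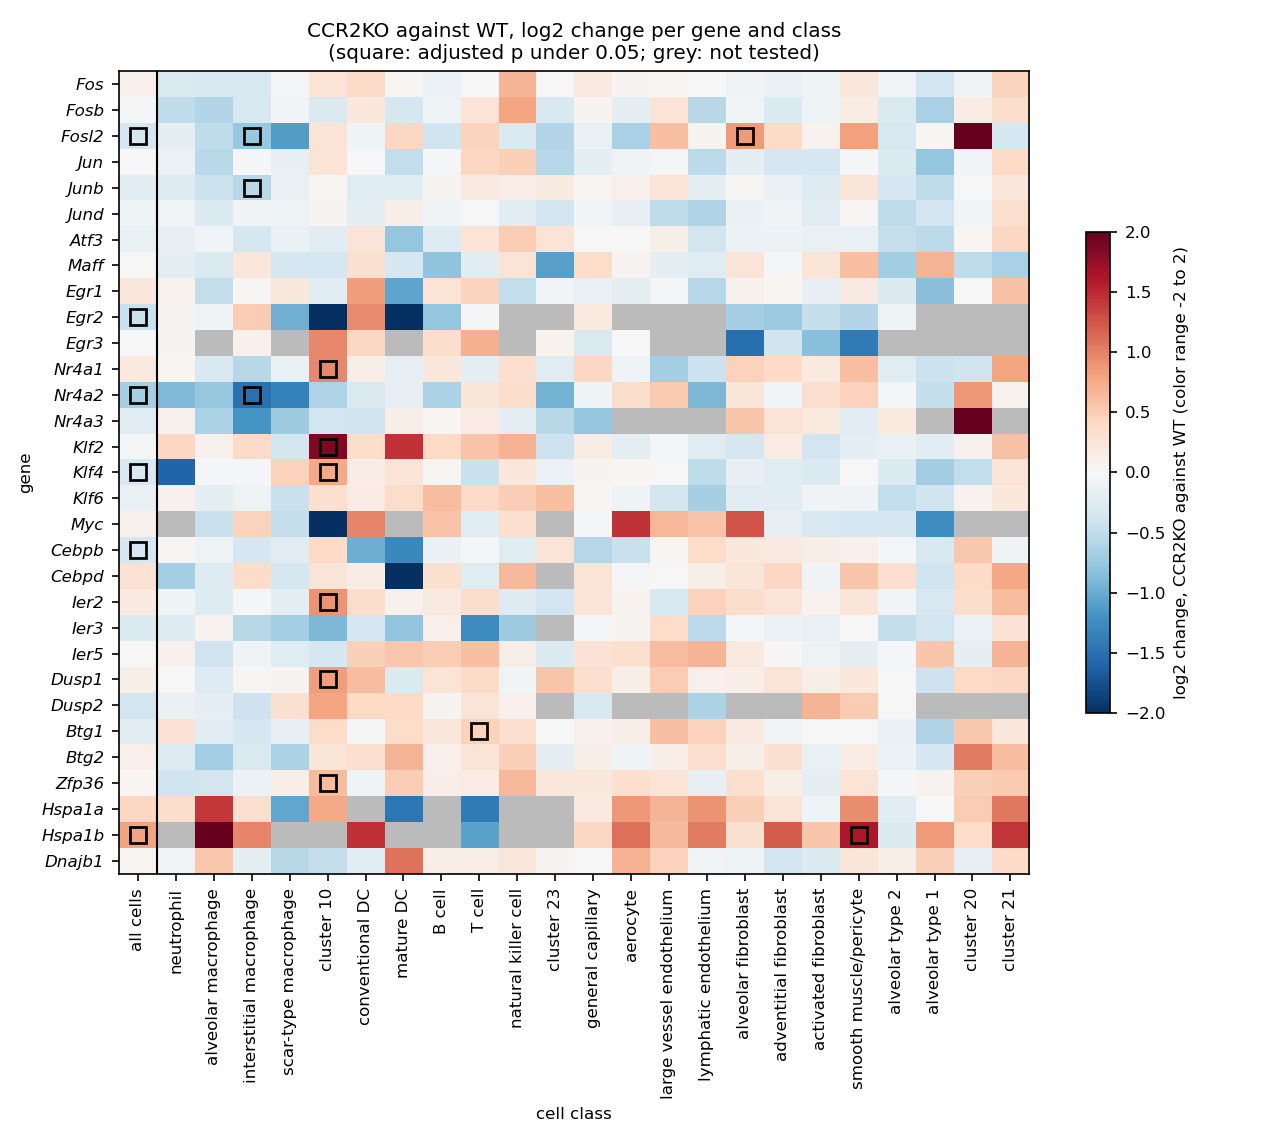
Log2 change, CCR2KO against WT, of each gene (rows) in all cells and in each class (columns), with colors cut off at -2 and 2; squares mark adjusted p under 0.05 and grey marks pairs that were not tested. The squares gather in cluster 10 (6 higher) and interstitial macrophages (3 lower).

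Cluster 10 held the monocytes. Its leading genes included Plac8 and Ccr2, and it carried markers of classical and of nonclassical monocytes, so it stayed unnamed. It had 1153 WT cells and 166 CCR2KO cells, with 14 to 31 cells per CCR2KO tag. In it 6 of 30 tested genes were called higher and 0 lower, against 0.374% higher and 3.55% lower of its 8031 genes. The median log2 change was 0.26 over the 30 genes and -0.20 over all genes. The share of reads in the 31 genes was 1.32% ± 0.121 in WT and 1.96% ± 0.376 in CCR2KO, and the highest WT tag, at 1.49%, lay below the lowest CCR2KO tag, at 1.60%.

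Nr4a1, which nonclassical monocytes of mice need to form, had a lowest, median and highest tag of 540, 680 and 1176 CPM in WT and of 803, 1424 and 2782 CPM in CCR2KO. The groups overlapped, and 8 of 8 CCR2KO tags lay above the WT median. The log2 change was 0.96 (SE 0.22, adjusted p = 0.009515). Klf2, known to keep lymphocytes quiescent, had 135, 173 and 278 CPM in WT and 49.5, 588 and 1573 CPM in CCR2KO. Its CCR2KO tags were widely spread, with 5 above every WT tag and 2 below every WT tag, and the log2 change was 1.86 (SE 0.44, adjusted p = 0.01196). Klf4, known to promote monocyte differentiation, had 516, 611 and 806 CPM in WT and 466, 1052 and 1794 CPM in CCR2KO (log2 change 0.76, SE 0.21, adjusted p = 0.03441).

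The other 3 came from the group of feedback and quiescence genes. Zfp36 had 953, 1449 and 1704 CPM in WT and 1689, 2042 and 2955 CPM in CCR2KO. Of its CCR2KO tags 7 of 8 lay above every WT tag, and the log2 change was 0.63 (SE 0.14, adjusted p = 0.006819). Dusp1 had 580, 669 and 914 CPM in WT and 525, 1135 and 2519 CPM in CCR2KO, where 5 tags lay above every WT tag and 1 below (log2 change 0.83, SE 0.23, adjusted p = 0.04041). Ier2, an early gene of unsettled function, had 157, 242 and 315 CPM in WT and 227, 488 and 557 CPM in CCR2KO (log2 change 0.90, SE 0.24, adjusted p = 0.02543). Fos and Jun were not among the calls in this cluster.

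The monocyte make-up of cluster 10 moved with these genes. Of 10 nonclassical monocyte markers 5 rose (Ace, Spn, Cd300e, Ceacam1 and Itgal), with a summed level of 790 to 2093 CPM over WT tags and 2577 to 5540 CPM over CCR2KO tags. Of 10 classical markers 4 fell (Ccr2, F13a1, Ms4a4c and Ifi27l2a), with a sum of 14153 to 19867 CPM in WT and 5945 to 13206 CPM in CCR2KO. Ccr2 is the targeted gene and is part of this sum, so its fall cannot be read as a change of make-up. None of either list was at 0 in every tag of a library. The surfactant genes Sftpc and Sftpa1 of alveolar type 2 cells were also called higher, while the summed level of all 11 markers of that type overlapped, at 5923 to 7851 CPM and 4176 to 8987 CPM. The number of genes detected at 5000 reads was 839 in WT and 652 in CCR2KO. The part of these shifts in the result was not tested. Leaving out each tag in turn gave 3 to 7 higher calls in cluster 10, with Nr4a1, Klf2 and Zfp36 called each time; without CCR2KO tag 3, which had the highest share, 4 were called. Without it Klf4 and Dusp1 missed the threshold, and over all 17 tags left out in turn Dusp1 missed it in 12 and Klf4 in 10. At a coarser clustering (resolution 0.8) Klf4 alone of the 6 passed. The cluster had 2 higher calls without the filter on low counts, 3 with doublets kept and 3 with the stricter cell filter. Ier2 passed under 3 of 10 other settings and missed the threshold with any of 5 tags left out. With RLE in place of TMM factors 8 were called, and the median over all genes moved from -0.20 to 0.07, with 69 higher and 210 lower genes in place of 30 and 285. Lower calls appeared under some settings. DESeq2 called 8 of the genes higher and 3 lower, against 154 higher and 524 lower of 8031 genes. Resolution 0.8 gave 1 higher and 1 lower, and leaving out CCR2KO tag 2, 5 or 8 gave 1 lower call each.

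In interstitial macrophages 3 of 31 genes were called lower and 0 higher in CCR2KO, against 0.608% lower and 0.579% higher of 10194 genes. The median log2 change was -0.11 over the 31 genes and 0.01 over all genes. Nr4a2 had a lowest, median and highest tag of 138, 264 and 353 CPM in WT and of 37.1, 90.3 and 160 CPM in CCR2KO. Of the CCR2KO tags 7 of 8 lay below every WT tag, and the log2 change was -1.49 (SE 0.23, adjusted p = 0.001351). It passed with each of the 17 tags left out in turn. Junb had 871, 1028 and 1487 CPM in WT and 622, 739 and 957 CPM in CCR2KO (log2 change -0.56, SE 0.13, adjusted p = 0.02902). Fosl2, the Fos relative known as Fra-2, had 139, 186 and 251 CPM in WT and 85.0, 104 and 182 CPM in CCR2KO (log2 change -0.75, SE 0.18, adjusted p = 0.03466). For both, 7 of 8 CCR2KO tags lay below every WT tag, but Junb missed the threshold with any of 5 tags left out and Fosl2 with any of 11. Both also missed it at 5000 reads per cell, at resolution 0.8, with the 31 genes allowed into the clustering and without the filter, and Fosl2 with the stricter cell filter. The highest adjusted p over 11 other settings was 0.3344 for Junb and 0.2406 for Fosl2, and Nr4a2 passed under 11 of 11.

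Monocyte and scar-type markers moved in the same class. Of 10 classical monocyte markers 3 fell (Ccr2, Plac8 and Ms4a4c), while the summed level of the 10 overlapped at 3094 to 5175 CPM in WT and 2713 to 4871 CPM in CCR2KO. The fall of Ccr2, the targeted gene, follows from the genotype and cannot be read as a loss of monocyte character. Of 11 markers of scar-type macrophages 3 rose (Spp1, Cd63 and Ctsk), with a sum of 7719 to 20122 CPM in WT and 18389 to 46757 CPM in CCR2KO. None of these markers was at 0 in every tag. Of the class's own 12 markers Cx3cr1 fell, and their sum overlapped, at 11339 to 21376 CPM and 7678 to 20534 CPM. The part of these shifts in the calls was not tested.

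**Figure D5:**
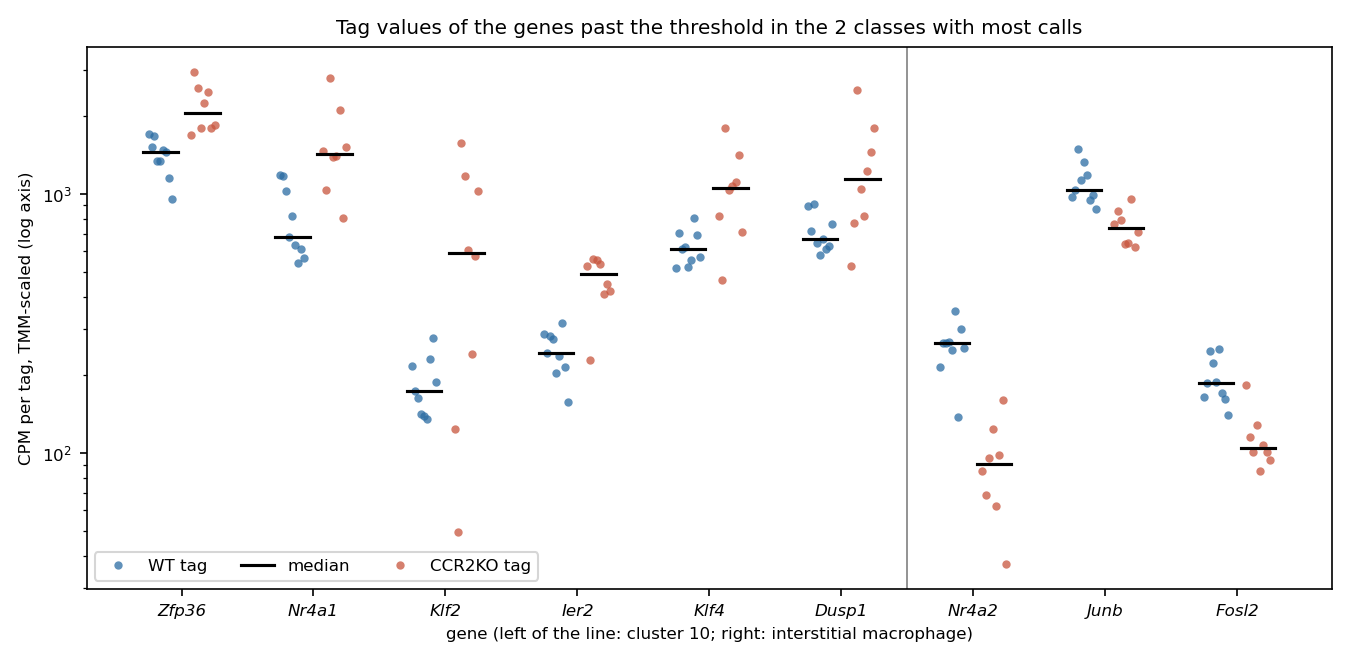
CPM scaled with TMM factors (y axis, log scale) of the genes past the threshold in cluster 10 (left of the line) and in interstitial macrophages (right). Points are tags (blue WT, red CCR2KO), black lines are medians; Klf2 in cluster 10 spreads from 49.5 to 1573 CPM over CCR2KO tags, and Nr4a2 in interstitial macrophages falls from a median of 264 to 90.3 CPM.

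The other 3 calls were single genes in single classes. In smooth muscle or pericytes Hspa1b rose, 1 of 31 against 0.0299% of genes higher, and 0 fell against 0.0697% lower. It had 19.8, 43.0 and 66.7 CPM in WT and 54.7, 154 and 236 CPM in CCR2KO, with 7 of 8 CCR2KO tags above every WT tag (log2 change 1.62, SE 0.29, adjusted p = 0.01998). It missed the threshold at 5000 reads per cell, with the stricter cell filter, and without CCR2KO tag 6 or 7. None of the 16 markers of the class changed. Hspa1a, its near-identical copy, had a log2 change of 0.93 there (SE 0.25, adjusted p = 0.3111). In alveolar fibroblasts Fosl2 rose, 1 of 30 against 0.177% of genes higher and 0.265% lower, from 60.9, 70.3 and 128 CPM in WT to 105, 144 and 233 CPM in CCR2KO (log2 change 0.86, SE 0.18, adjusted p = 0.03082). Sfrp1, a marker of activated fibroblasts, and Scgb1a1, of club cells, rose in alveolar fibroblasts as well, and their part in the result was not tested. The direction of Fosl2 was thus opposite in alveolar fibroblasts and interstitial macrophages, and the difference itself was not tested. In T cells Btg1 rose, 1 of 31 against 0.0571% of genes higher and 0.103% lower, from 1592, 2019 and 2373 CPM in WT to 2193, 2654 and 3256 CPM in CCR2KO (log2 change 0.47, SE 0.09, adjusted p = 0.03795). It missed the threshold with any of 13 tags left out, and with RLE factors (adjusted p = 0.08198), and passed under 5 of 11 other settings, with adjusted p between 0.01073 and 0.5162. Sftpc and Sftpa1 rose in T cells too, with the summed alveolar type 2 markers at 515 to 1039 CPM in WT and 820 to 2189 CPM in CCR2KO, and their part in the result was not tested. Fosl2 in alveolar fibroblasts missed it with any of 9 tags left out and with the stricter cell filter.

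Across classes the genes did not share a direction. Fos had a positive change in 10 of 23 classes and a negative one in 13, with a median log2 change of -0.01, and was called in 0. Egr1 was positive in 11 of 23 and Jun in 5 of 23, with medians of -0.05 and -0.11 and 0 calls each. Jund was negative in 19 of 23 and Ier3 in 17 of 22, with 0 calls each. The HSP70 genes leaned upward: Hspa1b was positive in 14 of 16 classes with a median of 0.91 and 1 call, and Hspa1a in 14 of 19 with a median of 0.36 and 0 calls. Dusp1 was positive in 18 of 23 and Zfp36 in 16 of 23, with 1 call each. The classes come from the same tags and libraries, so these signs are not independent of each other. Reads of Hspa1a and Hspa1b may also have been split between the copies.

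Over all cells together 1 gene was called higher and 5 lower in CCR2KO of 31 tested, against a background of 5.02% higher and 6.47% lower of 19198 genes. Sums over all cells also carry the cell make-up: fewer cells of a type and less RNA per cell cannot be told apart in them. Klf4 had a lowest, median and highest tag of 473, 510 and 568 CPM in WT and of 350, 421 and 471 CPM in CCR2KO, with no overlap (log2 change -0.30, SE 0.06, adjusted p = 0.002031). Nr4a2 had 135, 186 and 242 CPM in WT and 92.6, 118 and 150 CPM in CCR2KO, with 7 of 8 tags below every WT tag (log2 change -0.67, SE 0.12, adjusted p = 0.001509). Egr2 had 38.5, 42.4 and 57.9 CPM in WT and 27.0, 32.8 and 39.6 CPM in CCR2KO (log2 change -0.45, SE 0.11, adjusted p = 0.01032). Cluster 10, in which WT Nr4a2 was 630 CPM, made up 6.84% of the WT and 1.12% of the CCR2KO cells. Scar-type macrophages, with 549 CPM of Nr4a2 in WT, made up 5.72% of the WT and 0.968% of the CCR2KO cells. Alveolar type 2 cells, with 20.5 CPM of Nr4a2 in WT, made up 5.38% and 10.4%. Klf4, lower over all cells, was called higher within cluster 10. The part of cell make-up in these calls was not tested.

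Cebpb fell by 0.33 on the log2 scale (adjusted p = 0.01281), from 608 ± 81.3 to 482 ± 51.0 CPM. Fosl2 had 156 ± 29.1 CPM in WT and 123 ± 8.03 CPM in CCR2KO (log2 change -0.34, adjusted p = 0.0285). Hspa1b had 14.5, 19.2 and 52.4 CPM in WT and 29.1, 42.6 and 59.3 CPM in CCR2KO, with 8 of 8 CCR2KO tags above the WT median (log2 change 0.81, SE 0.23, adjusted p = 0.02801). Fosl2 missed the threshold with any of 6 tags left out and Hspa1b with any of 7. Thinned to 5000 reads per cell, 2 of the 6 calls held, Egr2 and Nr4a2.

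The canonical genes of the response missed the threshold over all cells. Fos had 1397, 1716 and 1982 CPM in WT and 1406, 1659 and 2228 CPM in CCR2KO (log2 change 0.11, SE 0.10, adjusted p = 0.5785), and the groups overlapped. Jun had 927, 1174 and 1309 CPM in WT and 867, 1092 and 1451 CPM in CCR2KO (log2 change -0.00, SE 0.10, adjusted p = 0.9933), with a sign that turned under 5 other settings. Egr1 had 793, 916 and 992 CPM in WT and 813, 1070 and 1241 CPM in CCR2KO, with 7 of 8 CCR2KO tags above every WT tag, and came near the threshold (log2 change 0.21, SE 0.07, adjusted p = 0.05749). It passed under 6 of 8 other settings. Hspa1a had 46.8, 57.8 and 126 CPM in WT and 77.7, 88.7 and 124 CPM in CCR2KO (log2 change 0.41, SE 0.17, adjusted p = 0.1357). Klf2 had a log2 change of -0.02 (SE 0.10, adjusted p = 0.9455) and Dusp1 one of 0.12 (SE 0.09, adjusted p = 0.4661).

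Related genes outside the list were read from 5 further lists. Over all cells, of 30 tested other immediate early genes 3 rose (Errfi1, Ctgf and Klf9) and 6 fell (Per1, Mcl1, Pim1, Gadd45g, Id2 and Plk2), with a median log2 change of -0.07. Of 16 other heat-shock genes 3 rose (Hsph1, Hspb8 and Dnaja1) and 0 fell, with a median of 0.20. Of 15 genes of NF-kB and cytokine feedback 2 rose (Nfkbiz and Cxcl1) and 2 fell (Socs3 and Cxcl2), and of 6 other DUSP phosphatases Dusp5 fell. Of 13 metallothionein and oxidative stress genes 0 rose and 0 fell. Among all 19198 genes tested over all cells 5.02% rose and 6.47% fell, and the median was 0.01.

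In cluster 10, Dusp16, a phosphatase of JNK, averaged 127 ± 32.3 CPM over WT tags and 415 ± 185 CPM over CCR2KO tags, a rise of 1.71 in log2 terms (SE 0.32, adjusted p = 0.001803). The metallothionein Mt1 averaged 653 ± 230 and 251 ± 161 CPM (log2 change -1.38, SE 0.37, adjusted p = 0.02958). None of 26 other immediate early genes tested there was called, and their median was 0.41. In interstitial macrophages the kinase gene Pim1 fell (log2 change -0.72, adjusted p = 0.02917) and Ptgs2, the inducible cyclooxygenase, fell as well (log2 change -1.50, adjusted p = 0.03348). Ccl2, the ligand of CCR2, averaged in the same class 807 ± 221 CPM in WT against 1620 ± 514 CPM in CCR2KO, a log2 rise of 1.00 (SE 0.19, adjusted p = 0.00641).

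From cell to cell within a class the genes moved together only weakly, taken as medians over classes. Over 22439 cells of the 10 largest classes, thinned to 5000 reads, the median correlation over 242 pairs of the genes was 0.06. It was above 0.2 for 5 pairs, which all held Fos, with Jun (0.23), Egr1 (0.22), Zfp36 (0.22), Fosb (0.22) and Atf3 (0.20). Single classes differed: Fos with Jun ranged from 0.03 to 0.45, and Jun with Egr1 from 0.01 to 0.45. In sparse counts such values are no finding. By correlation over cells of a class, centred on each tag, with the summed level of the 31 genes, the 10 most alike of the other genes ranked included Cyr61 (0.18), Rhob, Ppp1r15a, Nfkbia, Ccnl1, Trib1, Nfkbiz, Gadd45b and Tnfaip3 (0.12), as medians over classes; cells of a class share library and depth.

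How far the genes shaped the grouping of cells was described as well. Of the 31, 4 were among the 2000 most variable genes when they were allowed in: Fos, Egr3, Myc and Dusp2. Clustering with them gave 30 clusters in place of 32, and 94.62% of cells kept their class. Both clusterings shared 1995 of their 2000 variable genes. Genes of the 31 outside the 2000 entered no component, so the comparison covers only the 4 named. The adjusted Rand index between both clusterings, a measure of overlap that is 1 for identical groupings, was 0.85, against 0.80 between runs of the same clustering with another random seed. At most 1 of the genes was among the 50 largest loadings of any principal component. In the clustering without them, Fosb and Egr1 still stood among the 100 leading genes of cluster 20, an unnamed group of shallow cells with a median of 8100 reads, Dusp2 and Nr4a2 among those of natural killer cells, and Myc, Egr3 and Dusp2 among those of B cells.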

How the data were processed

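The deposited tables hold read counts per gene and cell, 1 table per genotype, with cells already assigned to hashtags by the authors; GRCm38, Bowtie2 2.4.2, cutadapt 2.10 and R 3.6.3 are named in the submitters' processing notes. The counts were taken for reads rather than molecules, because the median of the nonzero values was 10 and only 21.7% of them were 1; intervals between tags therefore do not rest on independent molecules. Cells named as doublets in the tables (680 WT, 531 CCR2KO) were left out, and 2 columns were not used. Cells needed 200 detected genes and a mitochondrial share of 25% or less, and Scrublet (rate 0.06) removed 370 WT and 336 CCR2KO cells. Scanpy 1.11.5 and leidenalg 0.10.2 clustered the cells (2000 variable genes, 40 components, 20 neighbours, resolution 1.5) without the 31 genes and Ccr2, and 314 marker genes of 29 types gave names.

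Reads were summed per tag and class (at least 10 cells per tag, 3 tags per genotype). edgeR 4.0.16 (filterByExpr, TMM, quasi-likelihood test, Benjamini-Hochberg over all genes of a class) compared genotypes, on R 4.3.3, after a check on simulated counts in which 200 genes were changed. Alternatives were DESeq2 1.42.0, RLE factors, no filter, other cell filters and clusterings, thinning to 5000 reads per cell, the tag number as a block, and each tag left out. Values tag by tag are given for genes past the threshold and for Fos, Jun, Egr1, Hspa1a, Klf2 and Dusp1 over all cells; genes outside the list are those called in the classes with most calls and the 10 most alike, of which 1 is not reported here. The 31 genes and all lists were chosen with earlier results of these data known.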

Additional observations from a re-analysis of the deposited data

Results flagged for a closer look

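In 6 of the 97 groups of tags tested, the highest or lowest tag stood apart from the others; chance alone flags about 1 group in 20. Over all cells, Hspa1a in CCR2KO tag 4 was 124 CPM, with the next tag at 99.3 CPM. In alveolar fibroblasts, Fosl2 was 128 CPM in WT tag 3 (next 92.2 CPM) and 233 CPM in CCR2KO tag 8 (next 148 CPM), so each genotype had 1 high tag for this call. In cluster 10, Ier2 was lowest in CCR2KO tag 2, at 227 CPM, with the next tag at 409 CPM. In interstitial macrophages, Fosl2 was 182 CPM in CCR2KO tag 1, with the next tag at 128 CPM. The share of reads in the 31 genes in cluster 10 was 2.84% in CCR2KO tag 3, with the next tag at 2.00%.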

How the results depend on the processing

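The 9 calls higher in CCR2KO became 3 with at least 30 cells per tag, which leaves cluster 10 untested, 16 with DESeq2, 4 at resolution 0.8, 5 without the filter on low counts and 3 with the stricter cell filter. The 3 calls lower became 10 with DESeq2 and 1 without the filter. The 6 calls over all cells became 2 at 5000 reads per cell. Leaving out each tag gave 4 to 10 calls higher (4 without WT tag 2 or 6, 5 without WT tag 1, 5 or 9 or CCR2KO tag 7), 1 to 4 lower (1 without WT tag 3, 5 or 6 or CCR2KO tag 4) and 4 to 8 over all cells. The tag number as a replicate block gave 3 calls higher (2 of them in cluster 10, Nr4a1 and Zfp36), 6 lower and 12 over all cells. Same-numbered tags correlated above 0.1 in 6 of 8 pairs (0.0071 to 0.3561), and 3 of 8 correlated best with their own number. CCR2KO tag 3 correlated best with WT tag 1, tags 5 and 6 with WT tag 4, and tag 7 with WT tag 8. CCR2KO tag 4 correlated best with WT tag 9. Exact numbers were thus not taken to pair the suspensions. A block of neighbouring numbers shared by both libraries was not modelled. The share of reads moved from 1.26% to 1.41% in WT and from 1.25% to 1.48% in CCR2KO, both at 5000 reads per cell and as a mean over cells. By share of cells with a read at 5000 reads, 14 of 31 genes in WT and 20 in CCR2KO had the same top class. Over all cells the log2 change of Jun turned to 0.0080 with DESeq2 and with RLE factors, to 0.012 with doublets kept, to 0.015 without the filter and to 0.017 with the stricter cell filter, and lay between -0.056 and 0.056 with each tag left out. That of Klf2 turned to 0.11 at 5000 reads and to 0.00021 without the filter, and lay between -0.084 and 0.030 with each tag left out. The cause of these changes was not tested, apart from the class left untested. Another random seed for the clustering was chosen after seeing the data. Small classes and 14 to 31 cells per CCR2KO tag in cluster 10 limit precision.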
